A study of Xenopus laevis with 6 samples.

Results

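The cytoplasmic ribosomal protein genes of Xenopus laevis, the African clawed frog, were examined in whole embryos at late gastrula. They were chosen by name alone: a row of the count table was taken when its symbol, without the ending L or S, read rpl or rps followed by a number, with or without 1 trailing letter and a number. The rule found 56 of the 45090 rows, 33 for proteins of the large ribosomal subunit and 23 for proteins of the small subunit. They stand for 30 gene symbols, 26 of them with both homeologs of this allotetraploid species, an L and an S copy from the parental subgenomes, and 4 with 1 homeolog (rpl10a.S, rpl22l1.L, rpl37a.L and rps10.L). Ribosomal protein genes listed under other names were not analysed here, except those given near the end. Sums and shares below therefore cover at most 18 large and 12 small subunit symbols, and not all ribosomal proteins.

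Half-size embryos were compared with intact siblings, with 3 libraries in each group. A half-size embryo grew from 1 of the first 2 blastomeres after they had been taken apart, and intact embryos were left whole. Both groups were wild-type, were fertilized in vitro, had their jelly removed with cysteine and were grown to Nieuwkoop and Faber stage 12.5. RNA came from whole embryos and passed through a stranded kit that selects mRNA, and how many embryos went into a library is not stated. Libraries of the 2 groups that carry the same replicate number came from siblings.

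A ribosome is built from ribosomal RNA and, for most ribosomal proteins, a single copy of each, and growing cells hold much of their mRNA. In vertebrates their mRNAs begin with a run of pyrimidines, through which growth signals acting by way of mTOR set how much of the mRNA is translated. A frog egg carries a large maternal store of ribosomes, and embryos make new ribosomal protein mRNA from their own genome as development goes on.

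Total counts lay between 20205384 and 26097821 in the half-size and between 20069300 and 29284864 in the intact libraries, so that 1 count was worth between 0.0341 and 0.0498 CPM (a count scaled to library size). No pair of libraries agreed within sampling noise (chi-square per degree of freedom of at least 13.3), and each was counted as 1 sample. Genes of all germ layers were present in every library: sox2.S of the neural plate lay between 23.4 and 36.3 CPM, t.S (brachyury) of the mesoderm between 195 and 522 CPM, sox17a.S of the endoderm between 128 and 146 CPM and krt12.S of the epidermis between 311 and 1104 CPM. The germ cell gene dazl.L lay between 19.6 and 29.8 CPM.

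Of the 56 rows, 54 passed the filter on low counts. The 2 that did not were the homeologs of rpl3l, a paralog of rpl3 known in mammals from striated muscle: rpl3l.L had 0, 1 and 3 counts in half-size and 2, 0 and 0 counts in intact libraries, and rpl3l.S had 0 counts in every half-size library and 1, 1 and 0 counts in intact libraries. The other 54 averaged between 29.2 and 602 CPM over the 6 libraries, with a median of 128 CPM, against a median of 8.94 CPM over the 21673 genes tested. Every one of them was above 72.3% of the genes tested. The most counts fell on rpl3.L (602 CPM), rpl3.S (379 CPM), rpl10a.S (367 CPM), rpl5.L (317 CPM) and rps3a.S (310 CPM). The protein of rpl3 lies by the peptidyl transferase centre and that of rpl5 binds 5S ribosomal RNA. The fewest fell on rps29.S (29.2 CPM), rpl24.S (44.2 CPM), rpl22l1.L (46.5 CPM), rpl38.L (67.0 CPM) and rpl29.L (72.2 CPM). These values are per library and not per transcript length, since no lengths were used, and they therefore give no order of mRNA amounts between genes.

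The ribosomal protein rows took a slightly smaller share of the counts in half-size embryos than in their intact siblings. This held in each of the 3 sibling pairs. The 54 rows together had 8193, 8552 and 7049 CPM in half-size replicates 1, 2 and 3, against 9264, 9776 and 7558 CPM in intact replicates 1, 2 and 3. Half-size libraries were thus lower by 11.6%, 12.5% and 6.74% in pairs 1, 2 and 3. The groups overlapped, because the sibling sets differed from each other by more than the groups did: the group means were 7931 ± 785 CPM in half-size and 8866 ± 1161 CPM in intact libraries (SD, n = 3 each). As shares of raw counts, the lowest was 0.715% in half-size replicate 3 (95% Wilson interval 0.712% to 0.719%) and the highest 0.961% in intact replicate 2 (0.957% to 0.964%), where the intervals cover counting error only. In whole embryos, fewer cells rich in these mRNAs and less of them per cell cannot be told apart. Since CPM values are shares, neither can be told apart from more of other mRNAs.

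Both subunits took part. The large subunit rows summed to 4438, 4702 and 3885 CPM in half-size libraries, against 4982, 5432 and 4248 CPM in intact libraries. The small subunit rows summed to 3754, 3850 and 3164 CPM in half-size libraries, against 4282, 4344 and 3310 CPM in intact libraries. Every half-size library lay below its intact sibling for both subunits. The ratio of the large to the small subunit sum was 1.21 ± 0.02 in half-size and 1.23 ± 0.06 in intact libraries (SD, n = 3 each), a difference smaller than the spread within the intact group.

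**Figure D1:**
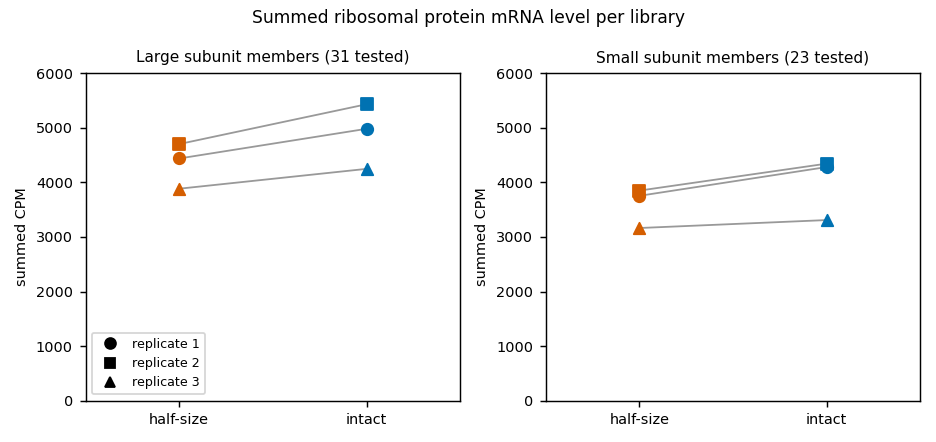
Summed CPM of the large subunit rows (left, 31 tested) and of the small subunit rows (right, 23 tested) in each library, half-size beside intact, with a line joining siblings and a marker for each replicate number. Each half-size point lies below the intact sibling it is joined to, and replicate 3 is lowest in both groups.

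Gene by gene, the shift was small and nearly always in one direction. In the paired fit, an edgeR quasi-likelihood test with the replicate number as a block, 52 of the 54 rows had a log2 fold change below 0 (half-size over intact), against 49.6% of all genes tested. The median over the 54 rows was −0.16, a 1.12-fold lower level, with quartiles of −0.21 and −0.10. The median over all genes was 0.00, with quartiles of −0.19 and 0.18. The fit without pairing also gave a median of −0.16 and 52 rows below 0, where 49.2% of all genes were below 0. In 35 rows the half-size library was below its intact sibling in all 3 pairs, which held for 22.6% of all genes tested, and in 0 rows it was above in all 3. The remaining 19 rows had pairs of both signs. The share of all genes was not matched for level, and the rows lay at higher counts than most genes. By pair the median log2 ratio over the rows was −0.17, −0.18 and −0.10, and 47, 53 and 42 rows were below 0 in pairs 1, 2 and 3. These rows share the libraries and their scaling and are not independent of each other.

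**Figure D2:**
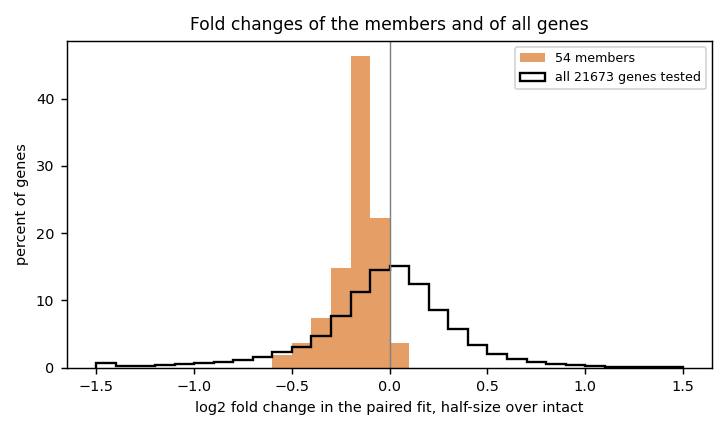
Percent of genes in each bin of log2 fold change (half-size over intact, paired fit, bins of 0.1), for the 54 ribosomal protein rows (filled) and for all 21673 genes tested (line, values beyond the axis placed in the end bins). The ribosomal protein rows form a narrow peak just below 0, with a median of −0.16 and a range of −0.57 to 0.08.

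Few rows passed the threshold singly. Without pairing, edgeR called 0 of the 54 rows at an adjusted p of 0.05, where 0% of all genes were called, and 1 row, rpl38.L, had an unadjusted p under 0.05 (3.58% of all genes did). DESeq2 and limma-voom without pairing also called 0 rows, where they called 0.24% and 0% of all genes. The paired fit called 3 rows, all lower in half-size embryos, which is 5.56% of the rows against 5.92% of all genes called in either direction and 3.93% called lower. The share of rows called was thus close to that of genes in general. At an unadjusted p under 0.05 in the paired fit, 20 of the 54 rows were lower, where 12.4% of all genes were. The rows lay at higher counts than most genes, so this comparison was not matched for level. The median standard error of a row's log2 fold change was 0.08 in the paired fit and 0.18 without pairing, so that a shift of the median size was about as large as the error without pairing.

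The largest fall was that of rpl38, a small protein at the surface of the large subunit. In mice, loss of 1 copy of Rpl38 alters the pattern of the axial skeleton and the translation of some Hox mRNAs. Its L homeolog rpl38.L had 73.6, 46.1 and 44.3 CPM in half-size replicates 1, 2 and 3, against 87.9, 70.3 and 79.7 CPM in intact replicates 1, 2 and 3. Half-size replicates 2 and 3 were the lowest libraries, and half-size replicate 1 lay inside the intact range. With pairing rpl38.L fell 1.48-fold (log2 fold change −0.57 ± 0.11 SE, adjusted p = 0.0161), and its log2 ratio was −0.26 in pair 1, −0.61 in pair 2 and −0.85 in pair 3. Leaving out pair 3 ended the call (log2 fold change −0.43, adjusted p = 0.0898), and leaving out pair 1 or pair 2 kept it (adjusted p = 0.00214 and 0.0330). Without pairing its log2 fold change was −0.54 ± 0.23 SE (adjusted p = 0.9998).

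The S homeolog rpl38.S had 76.3, 62.3 and 55.8 CPM in half-size libraries, against 81.7, 83.9 and 83.9 CPM in intact libraries. It was the only one of the 54 rows whose groups did not overlap, 1.85% of the rows, where 4.90% of all genes had every half-size value below every intact value. Its paired log2 fold change was −0.37 ± 0.10 SE and did not pass (adjusted p = 0.0601). With both homeologs summed, rpl38 had 149, 109 and 100.4 CPM in half-size libraries, against 169, 154 and 164 CPM in intact libraries. The sum fell by 0.46 on the log2 scale when paired (SE 0.10, adjusted p = 0.0265 by edgeR).

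A further call was that of rpl10a.S. The gene rpl10a encodes a protein of the large subunit stalk known as L1 in bacteria, which moves deacylated tRNA out of the ribosome. Its S homeolog, the only one with a row, had 346, 360 and 278 CPM in half-size libraries, against 436, 465 and 319 CPM in intact libraries. In every pair the half-size library was the lower one, while half-size replicates 1 and 2 were above intact replicate 3. With pairing it fell 1.23-fold (log2 fold change −0.30 ± 0.07 SE, adjusted p = 0.0389). Leaving out any 1 of the 3 pairs ended the call (adjusted p between 0.0685 and 0.298).

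**Figure D3:**
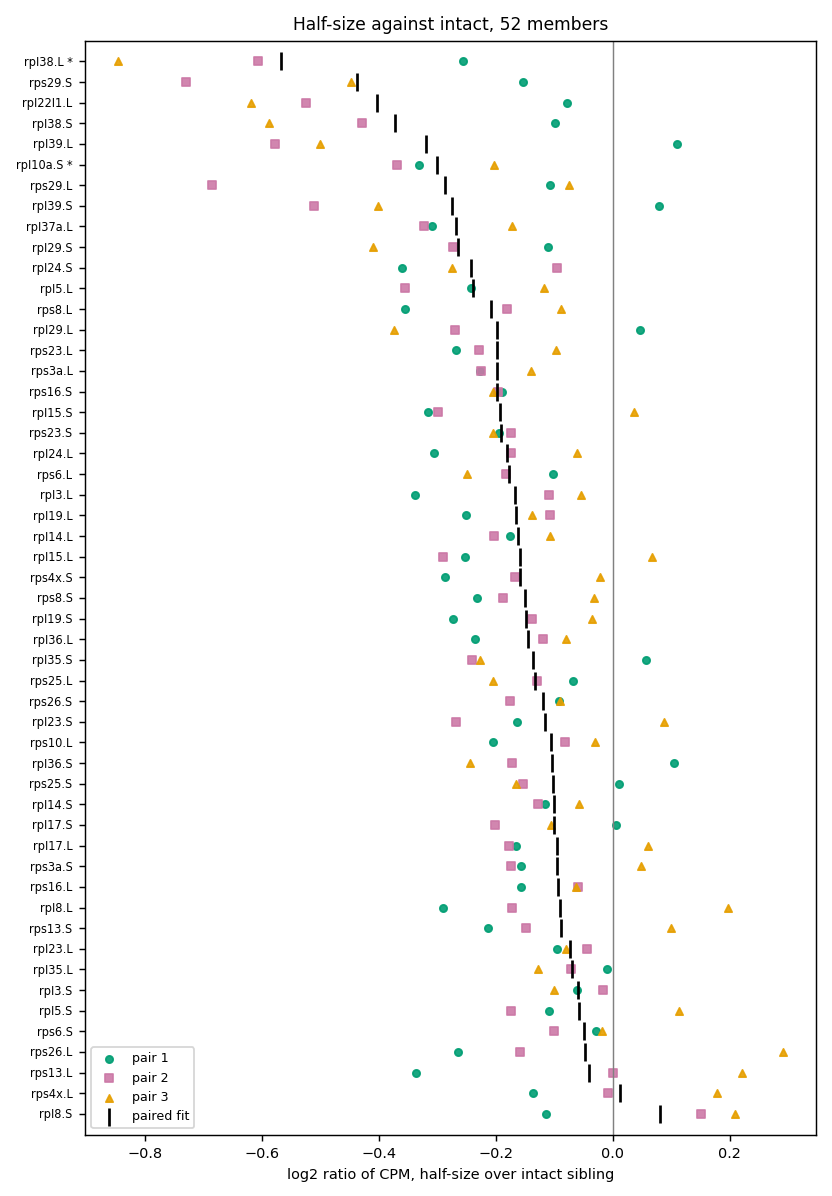
Log2 ratio of CPM (half-size over intact sibling) in pairs 1, 2 and 3 for 52 of the 54 rows, with a bar at the log2 fold change of the paired fit and a star at rpl38.L and rpl10a.S, which were called. Most points lie left of 0, and the rows at the top (rpl38, rps29, rpl22l1 and rpl39) lie further left in pair 2, and mostly in pair 3, than in pair 1.

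Next to rpl38.L and rpl38.S, the lowest paired log2 fold changes were those of rps29.S (−0.44 ± 0.12 SE, adjusted p = 0.0636), rpl22l1.L (−0.40 ± 0.12 SE, adjusted p = 0.0660) and rpl39.L (−0.32 ± 0.12 SE, adjusted p = 0.150). None of these passed. The small subunit row rps29.S had 36.5, 18.5 and 20.7 CPM in half-size libraries, against 40.6, 30.7 and 28.3 CPM in intact libraries. The row of rpl22l1, a paralog of the large subunit gene rpl22, had 56.3, 33.0 and 32.6 CPM in half-size libraries, against 59.4, 47.5 and 50.0 CPM in intact libraries. The large subunit row rpl39.L, whose protein lines the exit tunnel, had 149, 66.2 and 78.8 CPM in half-size libraries, against 138, 98.8 and 112 CPM in intact libraries. In pair 1 these 3 rows differed little or were higher in half-size embryos (log2 ratios of −0.15, −0.08 and 0.11), and in pairs 2 and 3 they were between −0.73 and −0.45. Without pair 1 the paired fit called 6 rows, all lower: rpl38.L, rpl38.S, rps29.S, rpl22l1.L, rpl39.L and rpl39.S. These were 11.1% of the rows, where 6.68% of all genes were called. Without pair 2 it called 1 row, rpl38.L (4.80% of all genes), and without pair 3 it called 0 rows (2.31% of all genes).

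At the other end, 2 rows had a paired log2 fold change above 0, and neither passed. The large subunit row rpl8.S had 85.6, 115 and 65.0 CPM in half-size libraries, against 92.7, 104 and 56.2 CPM in intact libraries (log2 fold change 0.08 ± 0.09 SE, adjusted p = 0.655). The small subunit row rps4x.L had 211, 260 and 199 CPM in half-size libraries, against 231, 262 and 176 CPM in intact libraries (0.01 ± 0.08 SE, adjusted p = 0.955). For both rows the sign differed between pairs. The homeolog rps4x.S was at −0.16 ± 0.08 SE (adjusted p = 0.272).

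The rows of rps6 and rpl5, genes also known for regulatory roles, lay below 0 in the paired fit without passing. The phosphorylation of the rps6 protein by S6 kinase is the usual readout of mTOR activity, and its main homeolog rps6.L had 248, 268 and 213 CPM in half-size libraries, against 266, 305 and 253 CPM in intact libraries. The half-size library was lower in every pair, at a paired log2 fold change of −0.18 ± 0.07 SE that did not pass (adjusted p = 0.186). The homeolog rps6.S was at −0.05 ± 0.08 SE (adjusted p = 0.770), and at 0.11 when libraries were scaled to the ribosomal protein rows. The rpl5 protein, in a complex with 5S RNA, can also bind Mdm2 and so raise p53. Its homeolog rpl5.L had 293, 318 and 257 CPM in half-size libraries, against 347, 407 and 279 CPM in intact libraries (−0.24 ± 0.08 SE, adjusted p = 0.0953), and rpl5.S was at −0.06 ± 0.08 SE (adjusted p = 0.744), or 0.10 with that scaling. Of the other genes picked by role, rpl10, rpl11, rps19, rps27, rps27a and rpl22 had no row that the name rule took.

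To ask which rows differed from the other ribosomal protein rows, libraries were also scaled to the summed counts of the 54 tested rows. This setting was chosen after the data had been seen. On this scale the median row had a log2 fold change of 0.00. The row rpl38.L was the 1 row called in the paired fit (−0.41 ± 0.12 SE, adjusted p = 0.0449), 1.85% of the rows where 13.4% of all genes were called. Its unadjusted p by edgeR was 0.00555 here, against 0.000389 with TMM scaling. This scaling moved the median of all genes to 0.16, and with more genes called the adjusted threshold is easier to pass. The call alone therefore cannot set rpl38.L apart from the other rows. The row rpl10a.S was at −0.14 ± 0.07 SE (adjusted p = 0.209). The row rpl8.S was at 0.24 ± 0.09 SE (adjusted p = 0.102).

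The rows also differed between sibling sets. Between replicate numbers, with the group in the same edgeR model, 47 of the 54 rows differed at an adjusted p of 0.05, 87.0% of the rows against 49.1% of all genes tested. These rows had a median of 128 CPM against 8.94 CPM over all genes tested, and the shares were not matched for level. Without half-size replicate 1 the share was 77.8% of the rows against 46.7% of all genes. Without half-size replicate 3 it was 68.5% against 44.4%, and without intact replicate 1 it was 85.2% against 47.8%. The excess over genes in general was much smaller without any 1 of the other 3 libraries. Without half-size replicate 2 the count was 23 (42.6% of the rows against 33.4% of all genes). Without intact replicate 2 it was 21 (38.9% against 35.4%), and without intact replicate 3 it was 24 (44.4% against 43.1%), shares near those of all genes. The mean of a row in its highest sibling set was between 1.13-fold and 1.80-fold that in its lowest, with a median of 1.35-fold. Sibling set 3 was the lowest for 43 rows and the highest for 0 rows. Against set 1, the median fitted log2 difference of set 3 was −0.33 over the rows and 0.01 over all genes, and 49 rows were below 0 where 49.4% of all genes were. Set 2 was above set 1 for 29 rows and below it for 25 (50.3% of all genes were above), with a median log2 difference of 0.02. Genes tied to stage differed between sets as well, though all embryos were labelled stage 12.5. Against set 1, the median fitted log2 difference of set 2 was 1.13 over 17 neurula rows and −0.87 over 21 early gastrula rows. For set 3 these medians were 0.20 and −0.17. The part of developmental stage in the differences between sets was not tested.

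The rows did not vary across sibling sets in one way. The smallest p between replicate numbers belonged to rpl8.S, which is given above, rpl19.L, rpl3.S, rpl3.L and rps23.S (adjusted p between 0.000543 and 0.00166 by edgeR's test). The large subunit row rpl19.L had 59.2, 99.8 and 67.3 CPM in half-size libraries, against 70.5, 108 and 74.1 CPM in intact libraries. Set 2 was highest in both groups, by 1.60-fold over set 1. The row rpl3.L, likewise highest in set 2, had 460, 726 and 519.8 CPM in half-size libraries, against 582, 782 and 540.0 CPM in intact libraries. Its homeolog rpl3.S had 284, 432 and 399 CPM in half-size libraries, against 296, 437 and 428 CPM in intact libraries, so that set 1 stood apart below sets 2 and 3. The small subunit row rps23.S, whose protein lies at the decoding centre, had 139, 122 and 92.1 CPM in half-size libraries, against 159, 138 and 106 CPM in intact libraries, with set 1 highest and set 3 lowest.

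The opposite order, with set 1 above set 2, was widest in both homeologs of rpl39 and rps29 and in rpl29.L, rpl22l1.L and rpl38.L, examples picked after the values were seen. Next was rpl36.S at 1.34-fold. Fitted levels of set 1 were 1.78-fold those of set 2 for rpl39.L, 1.62-fold for rpl39.S, 1.61-fold for rps29.S, 1.46-fold for rpl22l1.L and 1.42-fold for rpl38.L, with rps29.L and rpl29.L between the last 3. The row rpl38.S did not pass between replicate numbers (adjusted p = 0.359). Several of the same rows had the lowest log2 fold changes between half-size and intact embryos.

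**Figure D4:**
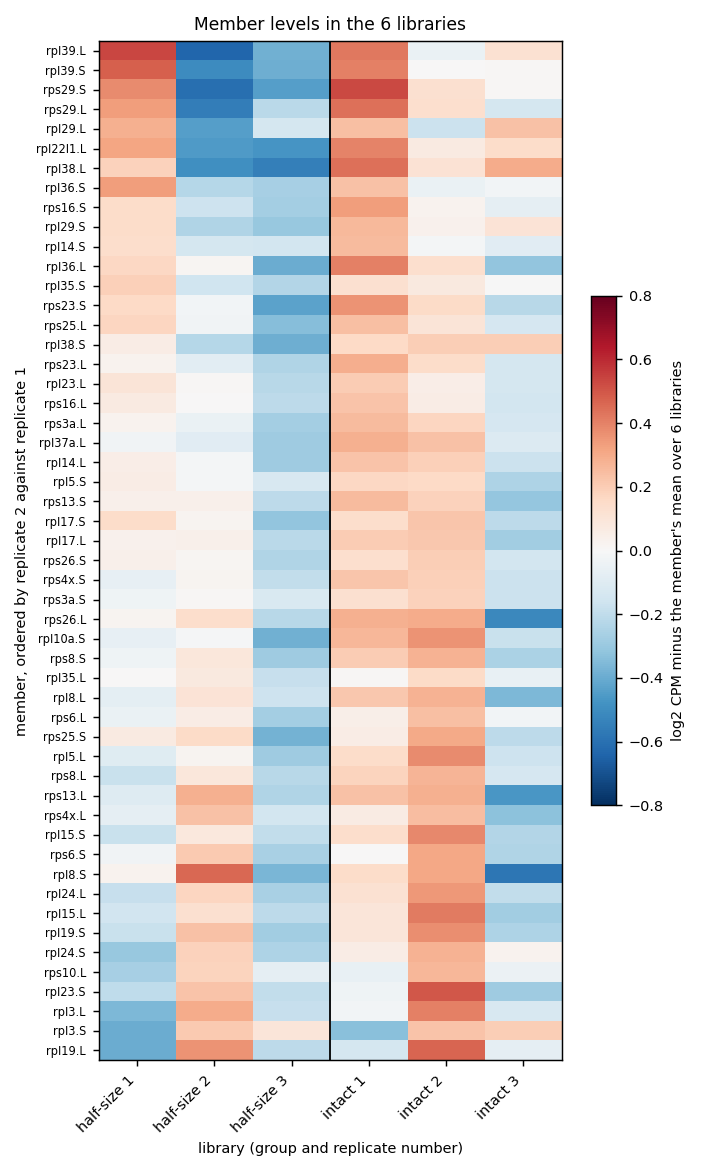
Log2 CPM of 52 of the 54 rows, each minus its mean over the 6 libraries (colour), with the half-size libraries left of the line and the intact libraries right of it, and rows ordered by replicate 2 against replicate 1. The top rows, from rpl39.L to rpl38.L, are high in replicate 1 of both groups, the bottom rows, rpl3.L and rpl19.L among them, are high in replicate 2 of both groups, and most rows are low in replicate 3.

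Levels of the 2 homeologs were compared within libraries for the 25 pairs with at least 1 CPM each. The L copy was the higher one in all 6 libraries for 11 pairs, the S copy for 9 pairs, and 5 pairs had libraries of both signs. The mean log2 ratio of L to S had a median of −0.03 over these pairs, against 0.20 over the 4296 homeolog pairs of the table, and L was higher in mean for 12 pairs (48.0%, against 56.4% of all pairs). The ratios were also closer to 1: the median size of the log2 ratio was 0.45, against 0.94 over all pairs. A difference over 2-fold of one sign was found for 5 pairs, and for 47.0% of all pairs. These comparisons were not matched for level: the ribosomal protein rows averaged at least 29.2 CPM, and the 4296 pairs at least 1 CPM per homeolog. Transcript lengths were not used, and how the counting treated reads matching both copies is not stated, so the ratios are uncertain for near-identical copies.

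Among the most L-biased pairs were rps29, rps6, rpl5 and rpl24. The log2 ratio of L to S was 1.63 ± 0.12 for rps29, a 3.09-fold higher count in L, 1.57 ± 0.12 for rps6, 1.05 ± 0.14 for rpl5 and 0.98 ± 0.12 for rpl24 (SD over 6 libraries). The most S-biased were rps3a at −1.09 ± 0.10, a 2.12-fold higher count in S, rpl36 at −0.95 ± 0.22, rps13 at −0.84 ± 0.15, rps26 at −0.69 ± 0.19 and rpl19 at −0.64 ± 0.18. Nearest to balance were rpl15 at 0.02 ± 0.04, rpl23 at −0.03 ± 0.29 and rps4x at −0.09 ± 0.14. The ratio of rpl23 differed between sibling sets: it was 0.27, −0.25 and −0.06 in half-size replicates 1, 2 and 3, and 0.20, −0.47 and 0.11 in intact replicates 1, 2 and 3. Replicate 2 was the most S-biased in both groups.

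The balance of the homeologs was not found to differ between half-size and intact embryos. Limma called 0 of the 25 pairs without pairing and 0 in the paired fit, where 0% of all pairs were called in each, and 0 had an unadjusted p under 0.05 in either fit. The largest difference was that of rpl38, whose log2 ratio of L to S was −0.05, −0.43 and −0.32 in half-size libraries, against 0.10, −0.25 and −0.07 in intact libraries (difference −0.19 ± 0.10 SE in the paired fit, adjusted p = 0.336). In 23 of the 25 pairs both homeologs had a paired log2 fold change below 0. The exceptions were the pairs of rpl8.S and rps4x.L, so this repeats the count of rows below 0 given above. The share of all homeolog pairs was not taken.

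**Figure D5:**
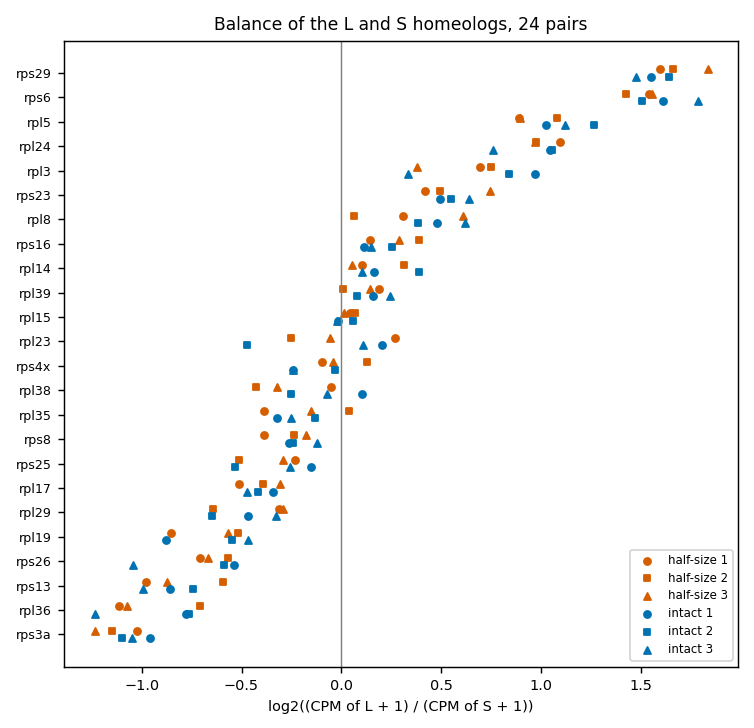
Log2 ratio of (CPM of L + 1) to (CPM of S + 1) for 24 of the 25 homeolog pairs, with half-size libraries above intact libraries in each row and a marker for each replicate number. Pairs run from rps29 (L higher, at about 1.63) to rps3a (S higher, at about −1.09), and the libraries of the 2 groups overlap in every pair.

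Related genes outside the name rule were set beside them. Of the acidic stalk proteins, rplp0.L, rplp0.S and rplp1.L were tested. The row rplp0.L had 158, 252 and 171 CPM in half-size libraries, against 202, 281 and 163 CPM in intact libraries, and the paired log2 fold changes were −0.15, −0.02 and −0.04, none of which passed. The row rpl27a-like.S fell by 0.37 on the log2 scale when paired (SE 0.08, adjusted p = 0.0234 by edgeR), with 79.3, 88.8 and 62.5 CPM in half-size libraries, against 99.5, 120.2 and 80.1 CPM in intact libraries. Its homeolog rpl27a-like.L was at −0.27 ± 0.09 SE (adjusted p = 0.0898), and rps28p9.L and rps28p9.S were at −0.15 and −0.11 (adjusted p = 0.311 and 0.542).

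Elongation factors and other mRNAs known to start with the same pyrimidine run were represented by 25 tested rows. In the paired fit 1 of them fell, 0 rose and 24 did not pass, with a median log2 fold change of −0.09 and 20 rows below 0. Over all genes tested, 5.92% were called in either direction, 3.93% were called lower and 49.6% were below 0. The row that fell was eef1b2.L, which encodes a nucleotide exchange factor of elongation, with 321, 253 and 279.7 CPM in half-size libraries, against 380.1, 318 and 355 CPM in intact libraries (log2 fold change −0.30 ± 0.07 SE, adjusted p = 0.0353). Of 79 tested rows of ribosome biogenesis, 2 fell, 1 rose and 76 did not pass, with a median of −0.05. The falls were those of gnl2.L, a nucleolar GTPase of large subunit assembly (−0.36 ± 0.08 SE, adjusted p = 0.0269), and mrto4.S, an assembly factor of the ribosomal stalk (−0.34 ± 0.09 SE, adjusted p = 0.0477). The rise was that of grwd1.L, a WD-repeat gene (0.42 ± 0.09 SE, adjusted p = 0.0262). A further 22 tested rows stood for mTOR signalling, larp genes and the Myc-related genes mycn, max and mxi1. No row of myc itself was among them, and mycn.L averaged only 1.07 CPM in half-size and 1.37 CPM in intact libraries. Of the 22 rows, 0 fell and 0 rose in the paired edgeR fit, 0 had an unadjusted p under 0.05, and the median was 0.00.

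Epidermal and early gastrula genes also differed between the groups, where the paired fit called 5.92% of all genes tested. Of 23 tested rows for non-neural epidermis, 11 fell, 3 rose and 9 did not pass in the paired fit. Among the falls, the largest was that of tp63.S, which encodes a transcription factor of the basal epidermis (log2 fold change −2.51). The rises were those of krt18.S (0.42), epcam.L (0.37) and epcam.S (0.36). The list summed to 5987, 8101 and 6517 CPM in half-size libraries, against 6448, 8578 and 6857 CPM in intact libraries. Of 21 tested rows of genes active at early gastrula, 6 rose, 1 fell and 14 did not pass. Among the rises, the largest was that of eomes.S, a T-box gene of mesendoderm (0.89). The fall was that of gs17.S (−0.94). That list summed to 1817, 1035 and 2048 CPM in half-size libraries, against 1361, 765 and 1365 CPM in intact libraries. Of 17 tested rows of genes of the neurula, 0 rose and 0 fell by edgeR's paired fit, and the median was 0.02. An unadjusted p under 0.05 in that fit was found for 7 of them, of both signs. It was found for 16 of the 23 epidermal and 13 of the 21 early gastrula rows. The counts were 12 of the 79 ribosome biogenesis rows and 5 of the 25 rows with elongation factors. All these counts take both directions. Over all genes tested, 12.4% had an unadjusted p under 0.05 in that fit and were lower. The share in both directions was not taken, so the counts cannot be set against it. The neurula rows summed to 259, 795 and 295 CPM in half-size libraries, against 274, 677 and 259.9 CPM in intact libraries. The part of epidermal cells and of developmental stage in the ribosomal protein values was not tested.

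In the authors' deposited table all 54 tested rows were listed and 52 had a log2 fold change below 0. That table does not name which group is on top of its fold, and the sign of these rows is that of half-size over intact in the counts. None had an adjusted p under 0.05 in the authors' deposited table, where 21 genes of 19518 did, and the smallest unadjusted p was that of rpl38.L (0.0602, log2 fold change −0.53).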

How the data were processed

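The authors deposited read counts per gene and library, whole numbers that were not normalized, for 45090 genes. The submitters' processing notes list TopHat2, HTSeq and DESeq but no version of them. Which genome build and annotation served is not stated in these sources. A second deposited table, the authors' own comparison, gives a linear fold ratio, its log2, and a raw and an adjusted p-value. The kit is stranded, per the labels' protocols, and the strand setting of the counting is not given.

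Tests on counts used edgeR 4.0.16 (quasi-likelihood) in R 4.3.3 (TMM, filterByExpr, 21673 genes, two-sided, Benjamini-Hochberg over all genes tested, threshold 0.05), with the group as the only term and, as an alternative, with the replicate number as a block (the paired fit). CPM values use TMM-scaled library sizes. Standard errors derive from the F statistic. Replicate numbers were taken as pairs because the labels speak of siblings, and same-numbered libraries deviated together from their group means (r over genes of 0.75, 0.82 and 0.68). Over the ribosomal protein rows alone, r was 0.72, 0.91 and 0.39 in pairs 1, 2 and 3. Libraries of unlike number had r between −0.85 and 0.27 over these rows. Deviations cancel out within a group, so unlike numbers tend to a negative r where same-numbered r is positive. This contrast is therefore no separate evidence for pairing. Replicate numbers were tested in the same paired model. Homeolog ratios used a pseudocount of 1 CPM and limma 3.58.1 over 4296 pairs. DESeq2 1.42.0, limma-voom, other scalings, summed homeologs and left-out libraries were alternatives. The edgeR and homeolog tests, with and without pairing, were run on simulated data. The changes planted there were larger than the median shift of the rows, so these runs cannot show whether such a shift would be found.

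The genes, lists and tests were chosen with earlier results of these data known. Genes named are those called in either fit or after summing homeologs, the 5 lowest and up to 5 highest log2 fold changes among rows of at least 10 CPM, the 5 highest and 5 lowest levels, the 5 most L-biased, 5 most S-biased and 3 most balanced pairs, the 5 smallest p between replicate numbers, and genes fixed by role. The rows rpl27a-like and rps28p9 were added after their values were seen. P-values set a difference against the variation among these libraries, which in the paired fit is what remains after the replicate block. A gene that the rule names is not reported here by name, though it is part of every count, sum and median.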

Additional observations from a re-analysis of the deposited data

How the results depend on the processing

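Pairing decided whether any row was called. Against 0 rows without pairing, the paired fit (replicate block) called 3, and also 3 with TMM factors from genes other than the ribosomal protein rows and 3 by limma-voom (added after the data were seen). It called 2 with DESeq2's size factors, 2 by paired DESeq2, 2 of 29 symbols with homeologs summed, and 1 when scaled to the summed counts of the rows. The share of all genes called was between 5.86% and 6.72% in these paired settings, and 13.4% in the last. With 1 pair left out the paired count ranged from 0 to 6, and the share of all genes from 2.31% to 6.68%. Without pairing, every other setting run gave 0 rows, and DESeq2 alone called any gene (0.24%). The replicate block changed no call of homeolog balance, where every setting run gave 0 pairs.

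The median log2 fold change of the rows was −0.16 in both fits. Leaving out 1 library without pairing moved it between −0.28 and −0.080, and leaving out 1 pair in the paired fit moved it between −0.19 and −0.12. Scaling to the rows' own counts set it to 0.0024 without pairing and −0.0021 with it, by construction, and moved the median of all genes to 0.16. The count of rows that differed between replicate numbers was 26 of 29 symbols with homeologs summed, and ranged from 21 to 46 with 1 library left out, where the share of all genes ranged from 33.4% to 47.8%. At 21 rows (38.9%) the share of all genes was 35.4%.

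Signs changed only for values near 0 among the rows followed. For rps4x.L the log2 fold change was −0.0047 by limma-voom, between −0.14 and 0.14 with 1 library left out and −0.071 in the paired fit without replicate 3. For rpl8.S it was between −0.16 and 0.26 with 1 library left out. For rpl5.S it was 0.10 when scaled to the rows' counts, without and with pairing, 0.0086 without intact replicate 1, 0.0026 without intact replicate 2 and 0.0014 in the paired fit without replicate 2. For rps6.S it was 0.11 when scaled to the rows' counts, without and with pairing, and between −0.18 and 0.11 with 1 library left out. Scaling to the rows' counts raises log2 fold changes by construction, with the median of all genes at 0.16. The cause of the other sign changes was not tested. With 3 libraries a group, shifts of the median size were near the error of single rows without pairing (median SE 0.18). In the paired fit the median SE was 0.08.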
